A study of Mus musculus with 4 samples.

Results

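The genes described here are those of the MAP kinase cascade and the dual-specificity phosphatases, as mapped for N6-methyladenosine (m6A) in mouse spinal cord. They were chosen by name alone, as each gene symbol formed of Mapk, Map2k, Map3k, Map4k or Dusp and a number. Of the 67 such symbols in RefSeq, 55 had at least 1 m6A peak, a share that was not set beside that of all RefSeq symbols. The 55 genes accounted for 146 of the 33556 peaks listed for injured mice and for 144 of the 34406 peaks listed for controls. A further 15 of the 4812 rows in the deposited table of differential peaks carried one of these names, so that 305 rows over 55 of 13558 gene names made up the set.

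Spinal cord was taken from C57BL/6J mice, 6 to 8 weeks old, on day 7 after surgery. In the chronic constriction injury (CCI) group the sciatic nerve was tied loosely with silk, which is a model of neuropathic pain, and in the sham group the nerve was exposed in the same way but left untied. Each group had 1 immunoprecipitated (IP) library and 1 input library, and the number of mice behind each was not given in the sources used here. Fragmented poly(A) RNA was pulled down with an m6A antibody, and the fold enrichment of a peak is its IP signal over its input signal as computed by the authors. Read numbers were not part of the tables, which leaves sequencing depth unknown. Since a group is 1 library pair, differences between CCI and sham lack a replicate check and are given without p-values. Every chosen marker of neurons (6 genes), oligodendrocytes (4), astrocytes (3) and microglia (4) had peaks in both lists, as did 3 of 4 spinal Hox genes. Of 5 muscle and dorsal root ganglion genes, Ckm and Acta1 of muscle had no peak. The 3 genes chosen for the ganglion, Scn10a, Mrgprd and Prph, had peaks in the sham list and 1 of them in the CCI list. Whether these genes are confined to the ganglion was not checked. Whether ganglion tissue was present, or differed between the groups, was not tested. The whole cord was used. A change of methylation within a cell type and a change in the mix of cells that carry a transcript therefore cannot be told apart in any value below.

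MAP kinase signalling runs as a relay of phosphorylations. MAP4K and MAP3K enzymes respond to receptors and stress, MAP2K enzymes are activated by them, and MAP2Ks phosphorylate the MAP kinases ERK, JNK and p38 on a threonine and a tyrosine. Dual-specificity phosphatases (Dusp) remove both phosphates, and several of them are themselves induced by the pathway, which closes a feedback loop. In the spinal dorsal horn, ERK phosphorylation marks neurons that have been sensitised by nociceptive input, and p38 and JNK are known for their activity in microglia and astrocytes after nerve injury. m6A is written mostly near stop codons and in 3′-UTRs of mRNA, in a sequence context whose core is commonly GGAC, and is read by proteins that act on mRNA stability and translation. Antibodies against m6A also bind the methylated adenosine that can follow the mRNA cap.

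Some of the peaks that differed most between the lists lay over transcript starts, and the starts were therefore searched for GGAC. The sequences printed first are those that hold the motif, whatever their ratio. RefSeq (GRCm38.p6, the build of the peak lists) gave a start for 45 of the 55 genes, 59 starts in all. A peak of the same gene covered part of the first 50 transcribed bases at 13 starts of 12 genes. The first transcribed base was A at 4 of these 13 starts (30.8%, 95% Wilson interval 12.7 to 57.6%), against 29.7% of the 2426 starts of any gene that lay under a peak. The motif GGAC, searched on the transcript strand of the first 50 bases, was present at 7 of the 13 starts (53.8%, interval 29.1 to 76.8%). It was present at 8 of the 46 starts of member genes without a start peak (17.4%), at 22.4% of all starts under a peak and at 18.9% of all 32851 starts. At 5 of the 7 starts the motif itself lay inside a peak, in both lists for Dusp1 and Map3k12 and in the sham list for Map3k5, Map3k10 and Map3k14. The Map3k12 starts share 1 peak, so the 13 are not independent, and the match is a description of letters and not of a methylated site.

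The 7 occurrences are printed in transcript orientation, with GGAC in capitals and up to 10 transcribed bases on each side.
Dusp1, chr17:26508453-26508472, minus strand: agtgaaGGACtggcgggagg
Dusp7, chr9:106368641-106368664, plus strand: cggccgggcgGGACtgaggccgga
Map3k5, chr10:19934556-19934575, plus strand: tctgggctggGGACtccggg
Map3k10, chr7:27674565-27674581, minus strand: gagGGACttagggggcc
Map3k12, chr15:102516989-102517004, minus strand: ggGGACggggcttcga
Map3k14, chr11:103267352-103267366, minus strand: gcttgtttgaGGACa
Mapk12, chr15:89140677-89140700, minus strand: gggccgggagGGACcactttgcgg

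The motif began at base 4 of the Map3k10 transcript, at base 3 of Map3k12 and at base 7 of Dusp1, that is, within a few bases of the cap. For comparison, the starts of Mapk9 and Map2k2 are printed with 15 bases before the first transcribed base, which is in capitals. These were the start peaks with the largest ratios in favour of CCI, and neither holds GGAC in its first 50 bases. Log2 ratios went both ways with the motif (Map3k10 -1.46, Dusp1 0.42) and without it (Mapk9 3.70, Map4k3 -1.23). A link between motif and direction was not tested.
Mapk9, chr11:49846736-49846765, plus strand: taagaatccgtcagaCtgagcgccgcggcg
Map2k2, chr10:81105900-81105929, plus strand: cgggacctcgcagaaAaagatctcgcgaga

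Most of the kinases and phosphatases with peaks had them in both groups. Of the 55 genes, 52 had peaks in both lists, with a median of 2 peaks per gene in each. In the CCI list, 75 of the 146 peaks lay in 3′-UTRs (51.4%, interval 43.3 to 59.3%), 45 in coding or other exons (30.8%) and 26 in 5′-UTRs (17.8%). In the sham list the numbers were 78 (54.2%), 39 (27.1%) and 27 (18.8%) of 144. All peaks together were divided in nearly the same way, with 49.8% of CCI peaks and 48.9% of sham peaks in 3′-UTRs. The median fold enrichment of the member peaks was 5.89 in CCI and 5.36 in sham, against 5.73 and 5.70 for all peaks, and single peaks ranged from 1.32 to 118 in CCI and from 1.18 to 128 in sham.

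Of the 67 symbols, 12 had no row in the tables used here, among them Mapk13, Map2k1, Map3k15, Map4k1, Map4k5, Dusp2, Dusp9, Dusp12, Dusp19, Dusp21 and Dusp27. The lack of a row does not show that a transcript was absent or unmethylated. Peaks in the sham list alone were found for Map3k2 (fold enrichment 5.04, 3′-UTR), Map3k8 (6.97, 3′-UTR) and Dusp13 (7.96, 5′-UTR). That is 3 of 55 genes (5.45%), against 8.46% of all gene names. The Dusp13 peak also lay within the span of Samd8, and reads of the genes cannot be told apart there. No member gene had peaks in the CCI list alone, against 4.77% of all gene names, and a count of 0 of 55 allows a share of up to 5.45%.

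**Figure D1:**
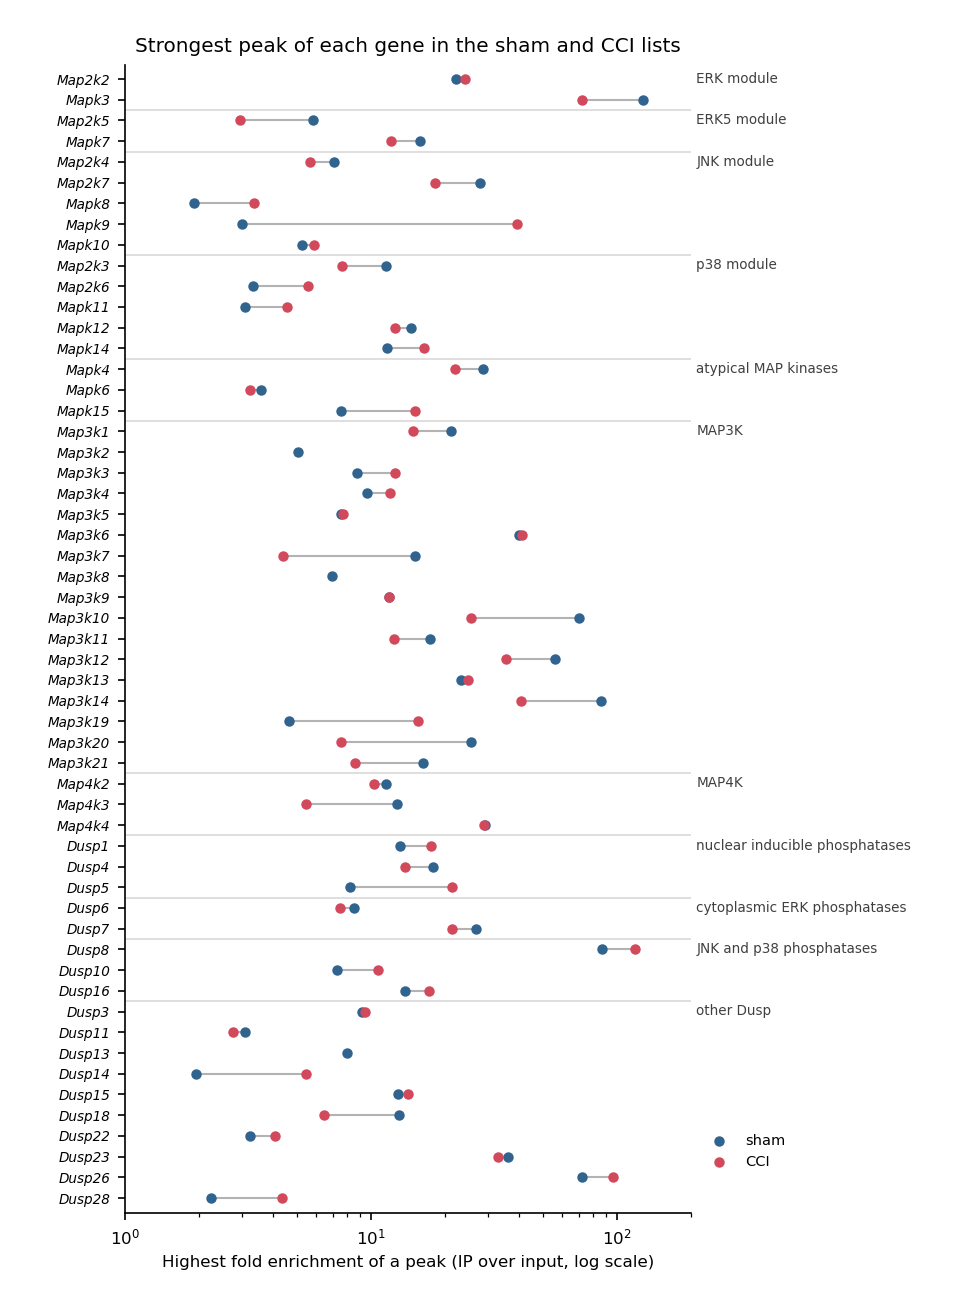
Highest fold enrichment of any peak (IP over input, log scale) for each of the 55 genes, ordered by role, with sham in blue and CCI in red and a line joining the values of 1 gene. Dusp8, Dusp26 and Mapk3 had the highest values, Mapk9 had the widest gap (39.1 in CCI, 3.00 in sham), and Map3k2, Map3k8 and Dusp13 have a sham point only.

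Where peaks of the CCI and sham lists shared exonic bases they were joined into pairs, each being the other's best partner. A partner was found for 124 of the 146 CCI peaks (84.9%, interval 78.2 to 89.8%) and for 120 of the 144 sham peaks (83.3%, interval 76.4 to 88.5%). The peaks with no partner were therefore 22 in CCI (15.1%, against 12.9% of all CCI peaks) and 24 in sham (16.7%, against 16.7% of all sham peaks). The joining gave 117 pairs for the kinases and phosphatases, out of 27236 in all. The region of a pair is that of its CCI peak, which differed from the sham annotation in 2 pairs, those of Mapk8 and Map3k20. In 16 of the 117 pairs a peak also overlapped a further peak of the other list, so that the ratio depends on which peaks were joined. Among pairs with a ratio of 2-fold or more these were 3, of Map2k7, Map3k9 and Map3k11. Fold enrichment was higher in CCI in 56 pairs, lower in 60 (51.3%) and equal in 1, while 47.8% of all pairs were lower. Counts of direction by role, given below, are of peaks, often several per gene, and were not tested. The median of the log2 ratio, CCI over sham, was -0.02 (quartiles -0.36 and 0.35), and that of all pairs was 0.03 (quartiles -0.37 and 0.44).

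A ratio of 2-fold or more was used to mark large differences, as a rule of size and not as a test. It was met by 17 pairs of 15 genes. In 8 pairs (6.84%) fold enrichment was higher in CCI, against 8.58% of all pairs, and in 9 pairs (7.69%) it was lower, against 7.23% of all pairs. Neither share stood far from that of all genes. The pair nearest inside the rule on the lower side was Dusp18 (log2 ratio -1.02) and the nearest outside was Map2k5 (-0.98). On the higher side these were Mapk15, at 15.1 in CCI and 7.55 in sham, and Map3k13 (0.96).

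**Figure D2:**
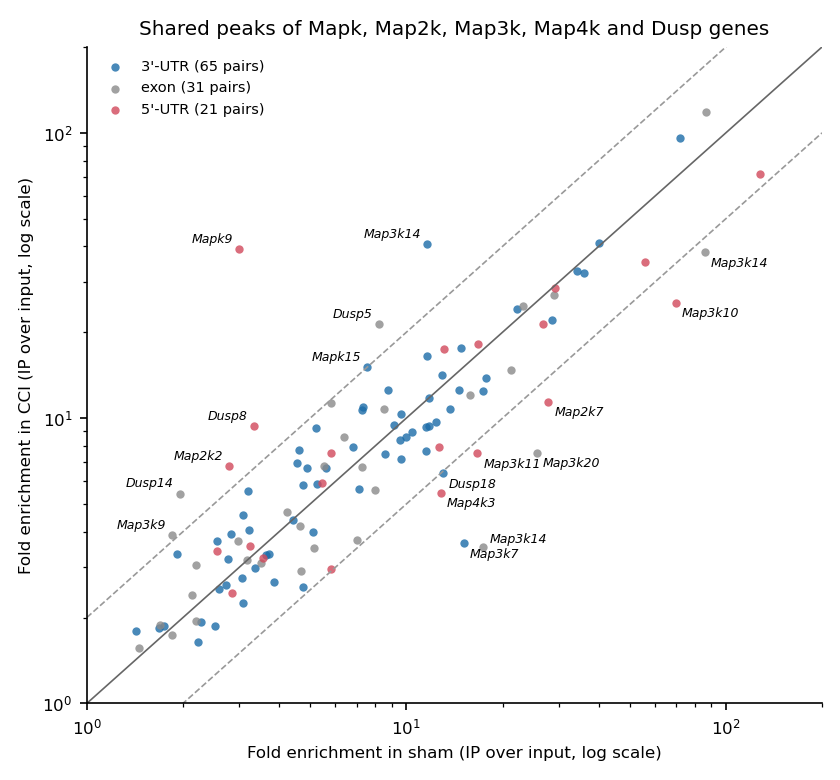
Fold enrichment of the 117 shared peaks in sham (horizontal axis) and CCI (vertical axis), both on log scales, coloured by region, with equality as a solid line and 2-fold differences as dashed lines. Most points lie between the dashed lines, and the 17 outside them are named, with Mapk9 farthest above and Map3k14 and Map3k7 farthest below.

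Large differences were most frequent over 5′-UTRs. Of the 21 pairs annotated there, 3 were at least 2-fold higher in CCI (14.3%) and 4 at least 2-fold lower (19.0%), while among all 5′-UTR pairs the shares were 11.6% and 12%. In 3′-UTRs, 2 of 65 member pairs were 2-fold higher and 2 were 2-fold lower (3.08% each), against 8.54% and 6.32% of all 3′-UTR pairs. In exons 3 of 31 pairs went each way (9.68%), against 7.34% and 6.54%. These shares rest on few pairs, and the differences between regions were not tested.

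Mapk3 and Map2k2 belong to the ERK module, and their 6 pairs were split evenly, with 3 higher and 3 lower in CCI (median log2 ratio 0.02). Mapk3, which encodes ERK1, carried the highest fold enrichment of the set in sham. The peak covered the 5′ end of the gene (chromosome 7, from 126759601 to 126759690 in CCI and to 126759749 in sham). Its fold enrichment was 71.9 in CCI and 128 in sham, a log2 ratio of -0.83. At the other end of the gene the 3′-UTR peak went the opposite way, with 9.25 in CCI and 5.23 in sham (0.82). A weaker peak in exon 3 of 7 was nearly level, at 1.74 and 1.85. In Map2k2, the MEK2 gene upstream of ERK, the 5′-UTR peak at the start sequence shown above was higher in CCI, 6.78 against 2.79 (log2 ratio 1.28). Its 3′-UTR peaks of 24.1 and 9.67 in CCI were 22.2 and 12.4 in sham.

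The ERK5 module consists of Mapk7, the ERK5 gene, and Map2k5, its dedicated MAP2K. In this module 4 of 5 pairs were lower in CCI (median -0.38), and none reached 2-fold. Mapk7 had fold enrichments of 12.1, 10.8, 5.59 and 3.30 in CCI and of 15.8, 8.49, 7.96 and 3.63 in sham at the same 4 peaks. Map2k5 had 2.95 in CCI and 5.81 in sham at its 5′-UTR.

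The JNK module held the largest single difference. Mapk9 encodes JNK2, and a peak at its transcript start (chromosome 11, from 49846751 to 49846930 in CCI and to 49846960 in sham) had a fold enrichment of 39.1 in CCI and 3.00 in sham. This is a 13.0-fold ratio (log2 ratio 3.70), and 11 of the 27236 pairs of any gene had a ratio at least as high. The evidence for the peak itself was not weaker in sham: the log10 false discovery rate (FDR) of IP against input was -24.4 in CCI and -32.7 in sham. The 3′-UTR peak of Mapk9 was level, at 2.51 in CCI and 2.59 in sham. Mapk9 had no row in the table of differential peaks.

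The other JNK genes showed smaller ratios. Mapk8 (JNK1) had 1 pair, with 3.35 in CCI and 1.91 in sham (0.81), which was annotated as 3′-UTR in CCI and as an exon in sham. Mapk10, the JNK3 gene that is expressed mainly in neurons, had 3 pairs in its 3′-UTR, from 2.56 against 4.76 (-0.89) to 3.94 against 2.82 (0.48). Of the MAP2Ks that activate JNK, Map2k4 was a little lower in CCI at both of its peaks, 5.66 against 7.09 and 2.59 against 2.72. Map2k7 was one of the most densely marked genes, with 6 peaks in each list. At its first exons the fold enrichments were 18.2 in CCI and 16.8 in sham, and at its strongest 3′-UTR peak they were 17.6 and 14.8. A farther peak, annotated as 5′-UTR (chromosome 8, 4245736 to 4249325 in CCI), was lower in CCI, 11.4 against 27.8 (-1.29). It overlapped the 3′-UTR peak just given, ran on past the other Map2k7 peaks and also covered Tgfbr3l, the next gene in RefSeq. Over the module as a whole, 8 of 14 pairs were higher in CCI and the median was 0.12.

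In the p38 module, 5 of 8 pairs were higher in CCI, none by 2-fold, and the median log2 ratio of 0.31 exceeded that of all pairs. Mapk14, the p38α gene, had a 3′-UTR peak of 16.5 in CCI and 11.6 in sham, and a neighbouring one of 8.39 and 9.58. At its 5′ end the lists held peaks that did not overlap: the CCI peak (chromosome 17, 28691432 to 28691551) had a fold enrichment of 11.5, and the sham peak (28691581 to 28691700) had 2.15. Mapk11, the p38β gene, was higher in CCI at both 3′-UTR pairs, 4.57 against 3.08 and 3.71 against 2.56. Mapk12 (p38γ) had 12.5 and 14.6 in the 3′-UTR, and in CCI a short start peak of 10.9 with no sham partner (log10 FDR -2.17). Of the MAP2Ks of p38, Map2k6 was higher in CCI (5.55 against 3.20) and Map2k3 lower (7.64 against 11.5).

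Among the atypical MAP kinases, which lack the usual upstream MAP2Ks, 6 of 8 pairs were lower in CCI. Mapk4 (ERK4) was lower at each of its 3 pairs, with 22.0 in CCI and 28.5 in sham at the strongest, in the 3′-UTR, and 7.95 against 12.7 at the 5′-UTR. Each of those pairs also overlapped a further, weaker peak of the other list, of 5.50 in CCI at the 3′-UTR and of 3.87 in sham at the 5′-UTR. Mapk6 (ERK3) had weak peaks of 1.57 to 3.23 in CCI and 1.46 to 3.56 in sham. Mapk15 (ERK7/8) had a single 3′-UTR pair of 15.1 in CCI and 7.55 in sham, and its log10 FDR was as weak as -3.45 and -2.43.

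The MAP3K genes contributed 31 pairs, of which 6 were at least 2-fold lower in CCI (19.4%, against 7.23% of all pairs). Fold enrichment was lower in CCI in 18 pairs and higher in 12 (median -0.18), and 2 pairs were at least 2-fold higher (6.45%, against 8.58%). The group was one of 11, and its share was not tested. These genes feed several branches at once, and the pattern differed from gene to gene.

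Map3k14 encodes NIK, the kinase of the non-canonical NF-κB pathway, and its peaks moved in both directions along 1 transcript (chromosome 11, minus strand). At exon 11 of 16 fold enrichment was 3.52 in CCI and 17.4 in sham (log2 ratio -2.31). At exon 5 it was 38.1 in CCI and 86.0 in sham (-1.17). In the 3′-UTR, over the same bases in both lists (103219941 to 103220211), it was 40.7 in CCI and 11.6 in sham (1.81). A peak over the first exons, with a fold enrichment of 20.9, was in the sham list alone. RefSeq places Gm34823 over the exon 11 and 3′-UTR peaks. The log10 FDR of the paired peaks lay between -22.1 and -3.11.

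Map3k7 encodes TAK1, which relays cytokine signals to JNK, p38 and NF-κB. It had a pair of 3′-UTR peaks, and the one near the end of the gene (chromosome 4, 32023079 to 32023407 in CCI) had a fold enrichment of 3.65 in CCI and 15.1 in sham (-2.05). The log10 FDR of that peak was nonetheless lower in CCI (-17.3) than in sham (-13.9). The other peak, farther upstream in the 3′-UTR, was level at 4.39 and 4.43.

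The mixed-lineage kinases and their relatives activate JNK in neurons, and DLK (Map3k12) is known as a sensor of axon injury. All 3 MAP3K pairs annotated in 5′-UTRs belonged to this family, and each was lower in CCI. Map3k10 (MLK2) had 25.4 in CCI and 69.7 in sham over 1520 exonic bases (-1.46). Map3k12 had 35.4 in CCI and 55.8 in sham over the same span, which also touches Tarbp2 (-0.66). Map3k11 (MLK3) had 7.53 in CCI and 16.7 in sham (-1.15), but the borders differed, because 1 sham peak of 1198 exonic bases faced a pair of CCI peaks of 420 and 480 bases, with fold enrichments of 7.30 and 7.53. The 3′-UTR of Map3k11 was also lower, 12.4 against 17.4. Map3k13 (LZK), the closest relative of DLK, had no 5′-UTR pair. Its strongest peak, in an exon, had 24.7 in CCI and 23.2 in sham. A peak in exon 1 of 13 was higher in CCI, 11.3 against 5.81 (0.96). It lay 90 bases from the transcript start in CCI and 120 in sham, so the lower values at 5′-UTR labels did not extend to every 5′ end of the family. Map3k9 (MLK1) was equal in its 3′-UTR, at 11.8 in both lists, and went both ways in its exons, 3.88 against 1.85 and 2.92 against 4.69. The CCI peak of 3.88 also covered a further sham peak of 3.20, against which the log2 ratio was 0.28.

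Of the remaining MAP3Ks, Map3k20 (ZAK, which responds to stalled ribosomes) had 7.56 in CCI and 25.6 in sham at a peak annotated as exon 20 of 20 in CCI and as 3′-UTR in sham (-1.76), with a weak log10 FDR of -2.85 and -5.44. Map3k1 (MEKK1) had 14.8 against 21.2 in an exon. Map3k6 had a strong and level 3′-UTR peak, 41.2 in CCI and 40.1 in sham. Map3k5 (ASK1), which responds to oxidative stress, had 7.72 against 4.61 in its 3′-UTR. Map3k4 (MEKK4) had a CCI peak with no partner in sham, over 750 exonic bases at exon 2 of 27 with a fold enrichment of 11.9 and a log10 FDR of -139. The adjoining peak in exon 3 was lower in CCI, 3.73 against 7.00. Map3k19 had an unpartnered CCI peak of 15.6 and Map3k21 an unpartnered sham peak of 16.3.

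**Figure D3:**
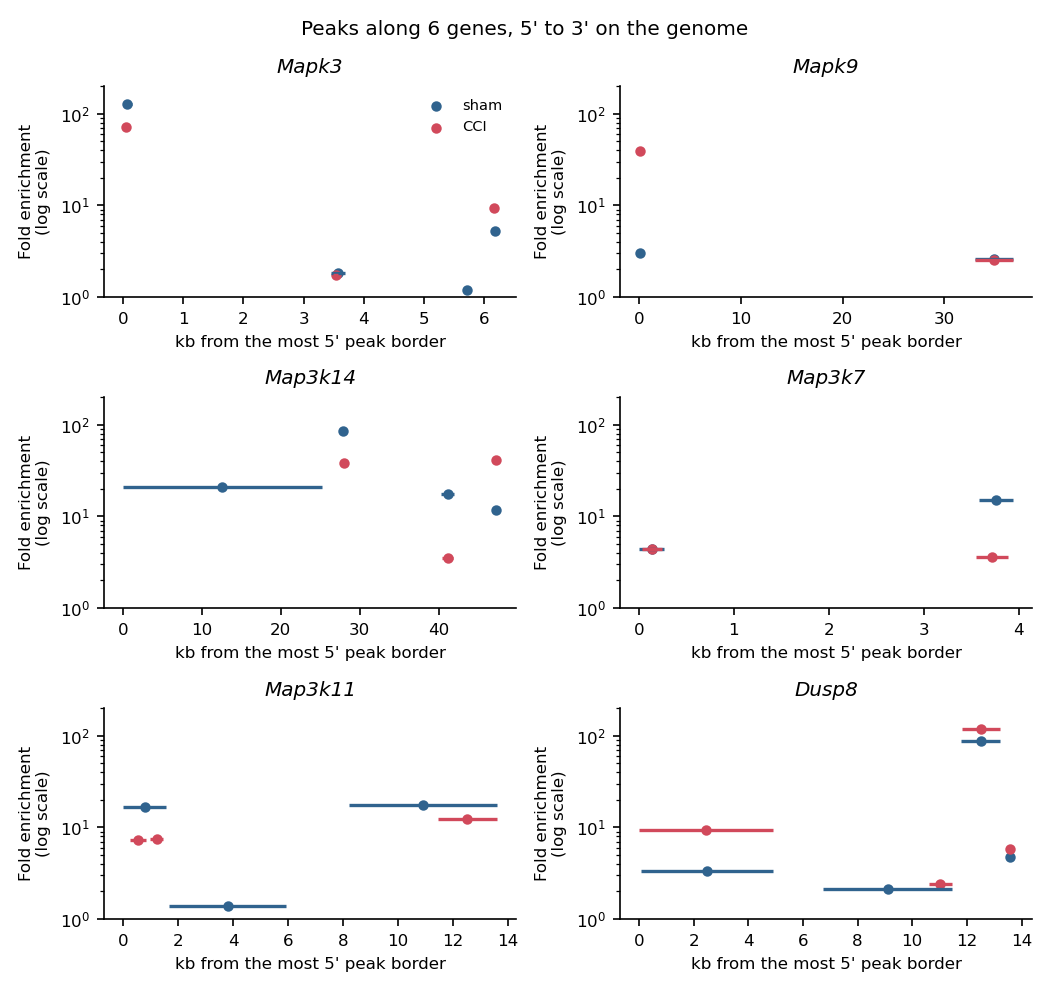
Fold enrichment (log scale) of the peaks of Mapk3, Mapk9, Map3k14, Map3k7, Map3k11 and Dusp8 against distance from the most 5′ peak border in kb, with sham in blue and CCI in red; horizontal bars span the peak on the genome, introns included, and dots mark the midpoint. In Mapk3, Mapk9 and Map3k14 the ratio of CCI to sham differed from one peak to another of the same gene, while in Dusp8 each shared peak was higher in CCI.

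The MAP4K genes carried 15 peaks in CCI and 12 in sham over 3 genes. Map4k4, a kinase upstream of JNK with roles in axon degeneration and inflammation, had 8 peaks in CCI and 6 in sham. Its strongest peaks were 28.7 in CCI and 29.1 in sham in the 5′-UTR and 27.0 and 29.0 in an exon. Map4k2 had 5 peaks in each list, with the strongest CCI peak at 10.3 (9.60 in sham) and the strongest sham peak at 11.5 (9.33 in CCI). Map4k3 alone in this group passed 2-fold, with a 5′-UTR peak of 5.47 in CCI and 12.8 in sham (-1.23). Over 11 pairs of MAP4K genes the median was -0.02.

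The phosphatases are the off-switches of the cascade. Of the 5 pairs of Dusp1, Dusp4 and Dusp5, the inducible nuclear enzymes, 4 were higher in CCI (median 0.42). Dusp1 (MKP-1), an immediate early gene that inactivates p38 and JNK, had 17.5 in CCI and 13.1 in sham over its start and 10.9 against 7.31 in its 3′-UTR. Dusp5, which is specific to ERK in the nucleus, had 21.4 in CCI and 8.22 in sham at exon 4 of 4 (1.38), with nearly equal log10 FDR (-17.2 and -17.1). The sham list held a further pair of Dusp5 3′-UTR peaks, of 5.81 and 4.45, that CCI lacked. Dusp4 went both ways, with 7.56 against 5.81 in the 5′-UTR and 13.8 against 17.8 in the 3′-UTR.

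Dusp8, Dusp10 and Dusp16 act on JNK and p38, and 8 of their 9 pairs were higher in CCI (median 0.22), against 14114 of all 27236 pairs. These pairs are peaks of 3 genes in 1 library pair per group and not replicates. Dusp8 had the highest fold enrichment in the CCI list. Its exonic peak (chromosome 7, 142081880 to 142083282 in CCI), at exon 6 of 7, had 118 in CCI and 86.9 in sham (0.44). The other Dusp8 pairs were 9.38 against 3.33 in the 5′-UTR (1.49, over an exonic stretch where RefSeq also places Gm32786), 5.84 against 4.74 in the 3′-UTR and 2.40 against 2.13 in an exon. Dusp10 (MKP-5) had 10.7 against 7.26 and 7.92 against 6.81 in its 3′-UTR, and a level exonic peak of 3.18 and 3.17. Dusp16 (MKP-7) had 10.8 against 13.7 in its 3′-UTR, where 1 long sham peak faced a pair of CCI peaks, and a further CCI peak of 17.2 without a partner.

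The pairs of the cytoplasmic ERK phosphatases were divided. Dusp6 (MKP-3), a feedback inhibitor induced by ERK, had 7.46 in CCI and 8.57 in sham in its 3′-UTR and 6.73 against 7.27 in an exon. Dusp7 had 21.4 and 26.7 at its 5′-UTR and 6.98 against 4.55 in the 3′-UTR, where the CCI peak of 660 bases also covered a further sham peak of 5.29. Over both genes 3 of 7 pairs were higher in CCI and the median was -0.11.

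Among the other Dusp genes, many of which have substrates beyond the MAP kinases, 5 of 13 pairs were higher in CCI and 8 lower. Dusp26, which is expressed in neural tissue, had the second highest CCI value of the set, in a 3′-UTR peak that runs to the end of the gene (chromosome 8, 31096299 to 31097047), with 95.9 in CCI and 71.7 in sham (0.42). Dusp23 had a pair of strong and level 3′-UTR peaks, 32.8 against 34.2 and 32.3 against 36.0. Dusp15 had 14.2 against 12.9. Dusp14 (MKP-6) differed more, with 5.44 in CCI and 1.95 in sham in exon 3 of 3 (1.48). Dusp18 was lower in CCI at its 3′-UTR, 6.42 against 13.0.

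**Figure D4:**
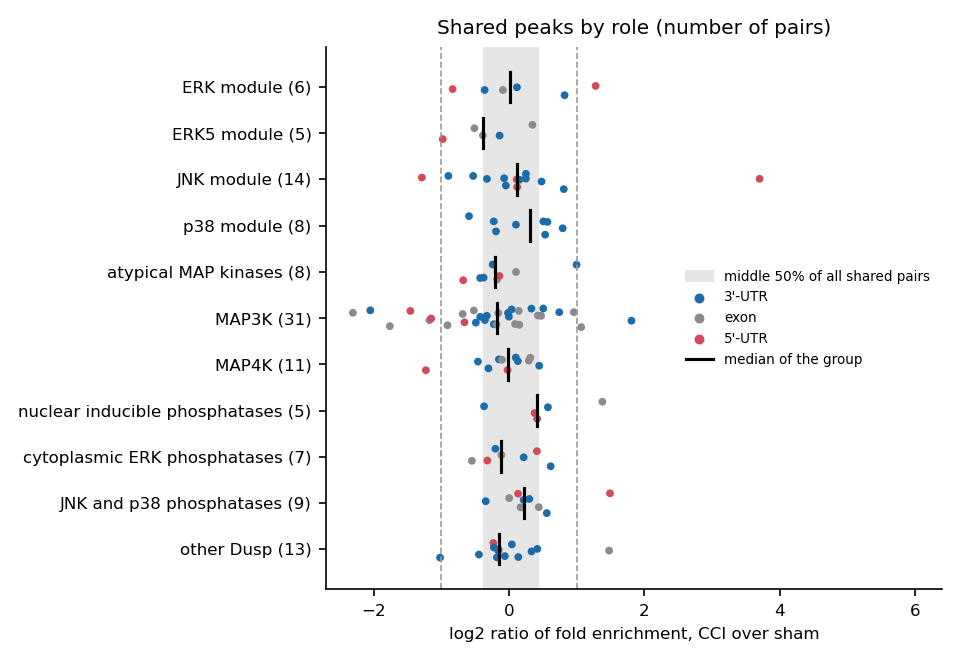
Log2 ratio (CCI over sham) of fold enrichment for each of the 117 shared peaks, grouped by role and coloured by region, with the group median as a black bar, the middle 50% of all 27236 pairs in grey and 2-fold differences as dashed lines. Group medians run from -0.38 (ERK5 module) to 0.42 (nuclear inducible phosphatases), and the MAP3K group has the most points beyond the lower dashed line.

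A higher ratio did not always go with stronger evidence for the peak. In 14 of the 17 pairs past 2-fold, the list with the higher fold enrichment also had the lower FDR, and the exceptions were Mapk9, Map3k7 and the 5′-UTR pair of Dusp8. That share was not set beside the share over all pairs. Among smaller ratios in favour of CCI, some pairs had the lower log10 FDR in sham (Dusp1 3′-UTR, -90.7 in CCI and -159 in sham). Others had it in CCI (Map2k6, -18.3 and -10.2). Of the 17 pairs, 5 matched a row of the deposited table of differential peaks, namely those of Map3k10, Map2k7, Map3k11, Map3k9 and Dusp14. In addition, 7 of the 146 CCI peaks and 9 of the 144 sham peaks lay within the span of another RefSeq gene, and their part in the ratios was not tested.

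In all, 12 of the 55 genes (21.8%) had a row in that table, against 25.3% of all gene names. Their 15 rows comprised 7 in 3′-UTRs, 5 in exons and 3 in 5′-UTRs. Besides the 5 pairs named above, the rows matched pairs with modest ratios. Fold enrichment was higher in CCI for the strong peaks of Dusp8 and Dusp26, for a Dusp7 3′-UTR peak (6.98 against 4.55) and for Mapk11 (3.71 against 2.56). It was lower for Mapk4 (22.0 against 28.5), the Map3k11 3′-UTR (12.4 against 17.4), a second Map3k9 exon (2.92 against 4.69) and an exon of Map3k12 (3.10 against 3.52). A pair of Map4k2 peaks annotated as 3′-UTR was also lower (9.33 against 11.5 and 2.25 against 3.09). The weaker (chromosome 19, 6343492 to 6343671 in CCI) lay over an annotated transcript start, far from the stronger (6353460 to 6353819). Its 3′-UTR label is therefore uncertain.

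Genes that act around the cascade were examined in the same way. Of 49 Ras, Raf, adaptor, inhibitor, scaffold, downstream kinase and nuclear target genes, 44 had peaks, 40 had them in both lists and 18 had a row in the differential table (40.9% of the 44, against 25.3% of all gene names). Their 135 pairs had a median log2 ratio of 0.03, and 10 were at least 2-fold higher (7.41%, against 8.58% of all pairs) and 7 at least 2-fold lower in CCI (5.19%, against 7.23%). The exchange factors, adaptors and GTPase-activating proteins (GAPs) that set the activity of Ras held 46 of the 135 pairs. Of these, 6 were at least 2-fold higher (13.0%, against 8.58% of all pairs). Another 2, of Gab1 and Shc1, were at least 2-fold lower (4.35%, against 7.23%). The shares were not tested. A peak labelled Nf1, a GAP that switches Ras off, and annotated as 3′-UTR had 18.8 in CCI and 3.10 in sham (2.60). The other 3′-UTR pairs with that label had log2 ratios from -0.23 to 0.06. On the genome, Nf1 peaks annotated as 5′-UTR (from 79527014) lay between this peak (79515297 to 79515685) and a further 3′-UTR peak (79581402 to 79581612). Its assignment to the Nf1 mRNA is therefore uncertain, and overlap with other genes was not looked up for these surrounding genes. Sos1, the exchange factor that switches Ras on, had 40.7 in CCI and 10.2 in sham at a 5′-UTR peak (2.00), and 14.6 and 16.3 at a neighbouring one (-0.16). Its adaptor Grb2 had 75.1 and 29.4 in the 5′-UTR (1.35) and 3.47 and 3.84 in the 3′-UTR.

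The scaffolds held 41 of the 135 pairs. Of these, 4 were at least 2-fold lower in CCI (9.76%, against 7.23% of all pairs) and 1 at least 2-fold higher (2.44%, against 8.58%). These shares rest on few pairs and were not tested. Mapk8ip1 (JIP1), which holds DLK, Map2k7 and JNK together, was lower in CCI at its strongest peaks, 84.4 against 207 in the 5′-UTR (-1.29) and 56.8 against 121 in the 3′-UTR (-1.09). A weak 5′-UTR peak of the same gene went the other way, 2.98 against 1.80 (0.73), and its exonic pairs went both ways. Ksr2, a scaffold of the ERK branch, had a pair of 3′-UTR peaks that differed in direction, 12.4 against 25.1 (-1.02) and 19.3 against 13.8 (0.48). None of the 11 pairs of nuclear targets, such as Fos and Jun, passed 2-fold in either direction. Beside the shares of all pairs just given, a count over so few pairs says little.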

How the data were processed

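MeRIP-seq peak tables of mouse spinal cord (CCI and sham, 1 IP and 1 input library each) were used as deposited. The submitters' processing notes name fastp, HISAT2, HOMER and ChIPseeker with GRCm38. The methods of the study name Cutadapt, bowtie, MACS2 and ChIPseeker, so the peak caller is uncertain, and its use of strand is not given in the sources used here. The authors deposited a fold enrichment for each peak, the ratio of the IP signal to the input signal. The deposited p-value tests IP against input. The deposited log10 p and log10 FDR were treated as a score, since some are minus infinity. The differential table also holds the authors' fold changes and p-values of CCI against sham, which were not used, and served here for the names and positions of its rows.

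Peaks were joined as mutual best partners by shared exonic bases over their union, on the same chromosome and gene strand, with at least 1 shared base. The pairing recovered every simulated pair when tested on simulated data. Simulated peaks were never split and did not compete for a partner, so that situation was not tested. A 2-fold ratio (absolute log2 ratio of 1 or more) was a rule of size. Wilson intervals (95%) and limits for a count of 0 (3 counts) cover counting error alone. Python 3.11.15, pandas 2.3.3, numpy 2.4.6, scipy 1.17.1 and matplotlib 3.10.9 were used. Genes named were the MAP kinases and MAP2Ks, the strongest 3 genes of each other class, the 5 largest differences in each direction, genes in 1 list and those with most peaks, and further genes were named after their values were seen. Members, roles and lists were chosen with earlier results of these data known. Alternatives were other overlaps, filters, folds, centring and units of counting. Values of some genes of the lists are not reported here.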

Additional observations from a re-analysis of the deposited data

How the results depend on the processing

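Of 204 values recomputed under alternatives, 6 moved beyond their tolerance. The 157 values for single named pairs could not do so, because each alternative kept the same ratio or subtracted 0.03. They therefore say nothing about how stable those ratios are. When at least 50% of the exonic bases of both peaks had to be shared, 72.6% of CCI peaks and 73.6% of sham peaks had a partner. That rule also dissolved 9 of the 83 named pairs, among them Map3k14 exon 11, Map3k11 5′-UTR, Map4k3 and Mapk15, and left 6 pairs at least 2-fold higher and 6 at least 2-fold lower. With 1 pair per gene the median log2 ratio was -0.15. At 1.5-fold, 14 pairs were higher (12%, against 18.8% of all pairs) and 17 lower (14.5%, against 16.3%). Counting 3′-UTR rows alone, 6 genes had a row in the differential table. Subtracting the median of all pairs (0.03) gave 7 pairs higher and 10 lower past 2-fold, and turned the sign of 1 pair, the level exonic peak of Dusp10.

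The search for GGAC and GGACT in the peaks themselves was not run. Depth was unknown, and a fold enrichment with a small input signal carries an error that the tables do not give.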
